A study of Mus musculus with 4 samples.

Results

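Kcnq1ot1-rich wells are single-cell wells of the BMDM plates in which the long noncoding RNA Kcnq1ot1 reached at least 10000 CPM, its counts scaled to the endogenous transcript counts of the well (CPM). A well was kept when it held at least 1000 counts outside the ERCC and mitochondrial rows and when ERCC spike-in RNA, a fixed amount of synthetic RNA added to each well, made up under 50% of its counts. By this rule 44 of the 496 kept BMDM wells were Kcnq1ot1-rich, out of 804 kept wells in the whole series. The wells were chosen by their measured Kcnq1ot1 level, so that level is a description of how the wells were chosen and not a result. The 44 wells were 14 of 262 kept wells in the plate from mice given whole brain radiation therapy (WBRT), or 5.34% (95% Clopper-Pearson interval 2.95 to 8.80), and 30 of 234 in the plate without it (noWBRT), or 12.8% (8.82 to 17.8).

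Every plate held myeloid cells sorted by flow cytometry from brains of Balb/C athymic nude mice (CAnN.Cg-Foxn1nu/Crl), a strain without a thymus, bearing lung cancer brain metastases. The samples are 1 plate of 384 wells for each of BMDM after WBRT, BMDM without WBRT, microglia after WBRT and microglia without WBRT. BMDM, as the labels call them, are macrophages that entered the brain from the blood, set apart from the resident microglia by the sort. Treated mice are labelled d3/5x2 Gy, read here as 5 fractions of 2 Gy, and what day 3 is counted from is not stated. Tumours of the noWBRT mice are labelled small and those of the WBRT mice not stratified, so that treatment, tumour stage and plate cannot be told apart. With 1 plate per group there is no replicate of any comparison, wells of a plate are not replicates, and no test was made. Intervals are 95% intervals for counting error, and those given for medians reflect only the wells or genes of that plate. Wells of one plate are compared with wells of that same plate. The labels do not say how many mice a plate came from. Well positions have the same names on all plates, and 0 kept wells had the same totals as another.

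Kcnq1ot1 is made from the paternal copy of an imprinted cluster on mouse chromosome 7, inside and antisense to the potassium channel gene Kcnq1. It is a very long, unspliced transcript that stays in the nucleus and silences neighbouring genes on the same chromosome copy. The protocol of these plates captures RNA by its poly(A) tail with an oligo-dT primer, which can also start on runs of A inside a transcript. Such internal starts are one known way in which intron-containing and nuclear RNA is counted. Whether the wells hold a type of cell or RNA of a different quality was not tested, and the measurements on each are given here side by side.

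Because of that chemistry, the A runs of the transcripts were read from the GENCODE M21 transcript sequences of build GRCm38. The annotated Kcnq1ot1 transcript runs over chr7:143203458-143296549 on the minus strand as 1 exon of 93092 nucleotides and holds 10 runs of at least 10 A. Its longest A run has 41 bases and the next longest 23. Both are printed 5′ to 3′ on the transcript strand with the run in capitals and 30 bases on each side in lower case, and the coordinates are those of the whole printed stretch.
Kcnq1ot1, longest A run, chr7:143226915-143227015: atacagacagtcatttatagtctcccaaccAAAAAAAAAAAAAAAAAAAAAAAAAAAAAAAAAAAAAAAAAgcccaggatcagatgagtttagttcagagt
Kcnq1ot1, next longest A run, chr7:143222746-143222828: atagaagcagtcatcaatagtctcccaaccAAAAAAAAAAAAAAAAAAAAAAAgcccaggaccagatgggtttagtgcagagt
Of 55341 annotated gene names, represented by their longest transcript, 9.74% held a run of at least 10 A and 14 (0.0253%) held a run at least as long as that of Kcnq1ot1. The median length of those transcripts was 1161 nucleotides, so a far longer transcript has more room for such runs.

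The level of Kcnq1ot1 spread widely among the rich wells. It was 11135 CPM in the lowest, 20130 in the median and 284047 in the highest of the 14 WBRT rich wells, against 0, 2274 and 9508 CPM in the other 248 WBRT wells. It was 10291, 25051 and 180174 CPM in the lowest, median and highest of the 30 noWBRT rich wells, against 0, 3298 and 9968 CPM in the other 204 noWBRT wells. The sets do not overlap because the rule divides them. The wells nearest to the limit form no gap: the 3 lowest rich wells after WBRT had 11135, 11149 and 13188 CPM, and the 3 highest other wells 9508, 9341 and 9307 CPM. Without WBRT these were 10291, 10364 and 10426 CPM in rich wells, and 9968, 9960 and 9905 CPM in other wells. At the other end, 5 WBRT and 9 noWBRT rich wells reached 50000 CPM.

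**Figure D1:**
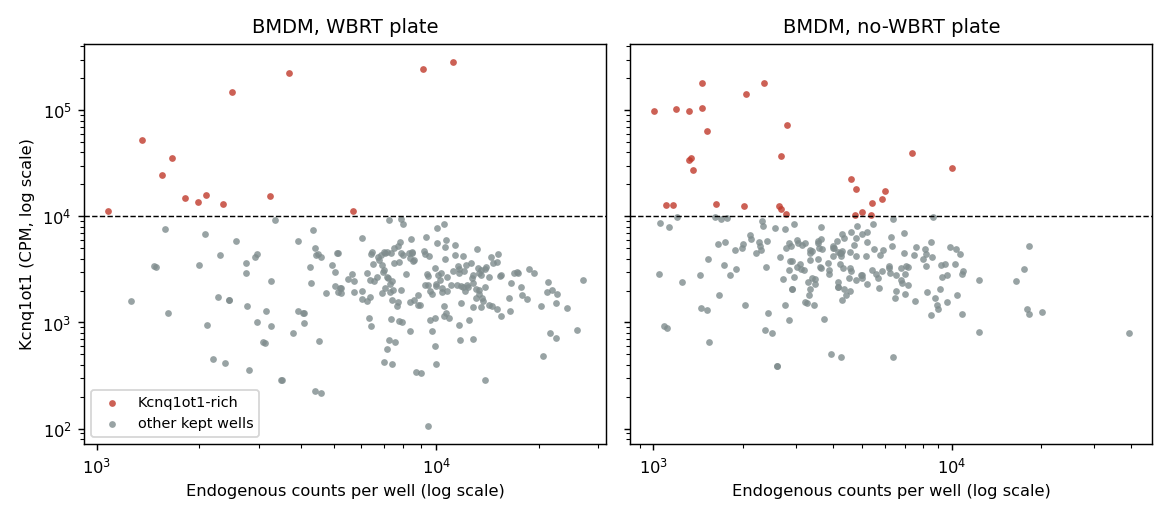
Kcnq1ot1 level (CPM of endogenous counts) against endogenous counts of each kept well of the BMDM plates, WBRT left and noWBRT right, both axes logarithmic, with the limit of 10000 CPM dashed. The 14 and 30 rich wells lie above the limit with no gap to the wells under it, and most of them lie at low counts.

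The rich wells held a small share of the RNA of each plate and a large share of its Kcnq1ot1. Together they had 49313 endogenous counts after WBRT and 94948 without, which is 2.12% and 8.25% of the counts of the kept wells, and 54.7% and 48.4% of the Kcnq1ot1 counts. After WBRT, 1 well alone gave 45.1% of the rich wells' Kcnq1ot1 counts, and without WBRT the well with most gave 12.6%. Values pooled over the WBRT rich wells therefore rest heavily on 1 well, and well medians are given beside them.

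The median rich well was shallower than the median other well of its plate. Endogenous counts were 1079, 2231 and 11159 in the lowest, median and highest WBRT rich well, against 1124, 8414 and 26955 in the other WBRT wells. Without WBRT they were 1006, 2502 and 10019 in rich wells, against 1044, 4164 and 39214 in other wells. The ranges overlap almost fully and the medians differ. Rich wells were most frequent among the shallowest wells: 6 of 15 kept WBRT wells with 1000 to 2000 counts were rich, 5 of 34 with 2000 to 4000, 1 of 82 with 4000 to 8000 and 2 of 131 with 8000 or more. In the noWBRT plate the same bins held 12 rich of 38 wells, 8 of 78, 9 of 82 and 1 of 36. Over all kept wells the Spearman correlation of Kcnq1ot1 CPM with endogenous counts was -0.09 (262 WBRT wells) and -0.21 (234 noWBRT wells). Within the rich wells it was 0.42 (14 wells) after WBRT and -0.34 (30 wells) without. With the ERCC share it was -0.35 and 0.42 within the rich wells, and with the mitochondrial share -0.41 and -0.05. These coefficients describe wells that share a library, and the counts are also the denominator of the CPM. The order of the median depths rests on the wells under 3000 counts in the noWBRT plate: with a minimum of 3000 counts, which left 5 and 10 rich wells, the log2 ratio of the median counts was -0.70 after WBRT, against -1.91 with all rich wells, and 0.06 without WBRT, against -0.74.

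Spike-in and mitochondrial shares were higher in the median rich well. The ERCC share was 3.72%, 25.5% and 42.0% in the lowest, median and highest WBRT rich well, against 2.98%, 7.78% and 38.3% in other WBRT wells. It was 2.33%, 9.67% and 31.2% in noWBRT rich wells, against 1.02%, 6.88% and 31.8% in other noWBRT wells. ERCC counts themselves were close, with medians of 875 in rich and 820 in other WBRT wells, and of 271 in rich and 346 in other noWBRT wells. With the minimum of 3000 counts the difference of the median ERCC shares, rich minus other, was 1.56 percentage points after WBRT, against 17.7 with all kept wells, and -2.25 without WBRT, against 2.79. Per ERCC count a median rich well of the full set held 2.47 endogenous counts after WBRT, against 11 in other wells, and 8.69 without WBRT, against 12.4. The mitochondrial share had a median of 12.6% in WBRT rich wells (range 1.76 to 36.5%) against 6.78% in other WBRT wells (0.600 to 31.4%), and of 10.6% in noWBRT rich wells (2.95 to 22.4%) against 8.29% in other noWBRT wells (3.22 to 29.1%).

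Part of the ERCC difference was present in other wells limited in depth. The other wells with counts between the quartiles of the rich wells (1701 to 3565 counts, 29 wells after WBRT, and 1382 to 4769 counts, 116 wells without) had median ERCC shares of 16.3% and 8.02%, between those of the rich wells and of all other wells. Their median mitochondrial shares were 6.78% and 8.25%, which is the level of all other wells. These depth-limited wells were still deeper than the rich wells, with median counts of 2743 against 2231 after WBRT and 3184 against 2502 without. Depth was thus not fully matched, and its part in the remaining differences was not tested. Genes detected per well had a median of 1081 in rich and 2806 in other WBRT wells, and of 1094.5 in rich and 1647 in other noWBRT wells. After each well was thinned to 1000 UMIs, with 0 wells left out, the medians were 604 in rich and 654 in other WBRT wells, and 600.5 in rich and 630 in other noWBRT wells. Of the 1000 UMIs, Kcnq1ot1 and the 6 partner genes named below took a median of 56.5 in the rich wells of each plate. In other wells they took 6 after WBRT and 8 without. Fewer UMIs were thus left for all other genes in rich wells, so no lower diversity is read from these medians.

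**Figure D2:**
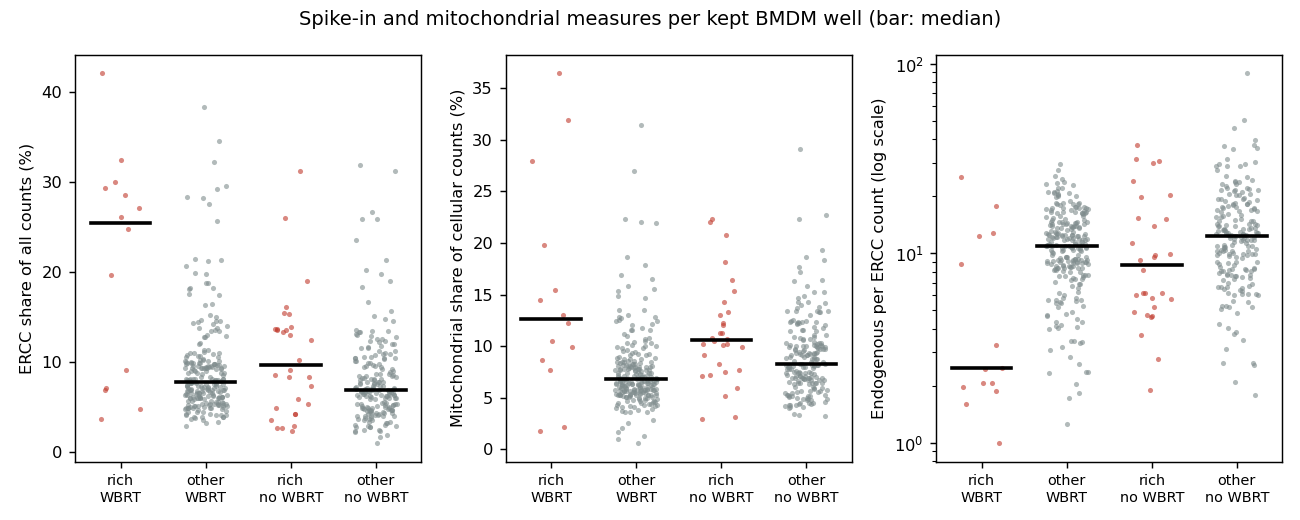
ERCC share, mitochondrial share and endogenous counts per ERCC count of each kept BMDM well, with rich wells left of the other wells of their plate and a bar at each median. The median ERCC share is 25.5% against 7.78% after WBRT and 9.67% against 6.88% without, and the ranges of rich and other wells overlap in every panel.

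Pooled over the wells that failed the filters, Kcnq1ot1 was also at a high level. Among wells with at least 100 endogenous counts that were not kept, 22 of 65 (33.8%) in the WBRT plate and 19 of 69 (27.5%) in the noWBRT plate reached 10000 CPM, and their pooled levels were 18354 and 11690 CPM. The median of these wells was 5376 CPM after WBRT and 2386 CPM without, against 2274 and 3298 CPM in the other kept wells. By the rule the other kept wells end at 10000 CPM, and the wells that failed do not, so the sets are unlike. A single count is worth about 10000 CPM in the shallowest of the wells that failed, so the pooled level is the firmer of these values. In the microglia plates 6 of 151 kept wells reached the limit after WBRT and 4 of 157 without. There the rich wells were not the shallower ones: the median was 4386 counts in rich and 2354 in other wells after WBRT, and 6688 in rich and 4392 in other wells without. Their median ERCC share was 14.5% against 30.7% after WBRT and 6.32% against 6.93% without. The direction of depth and spike-in share thus differed between the BMDM and the microglia plates, with 6 and 4 wells behind the microglia values, while the median mitochondrial share was higher in rich wells there too, 12% against 7.43% and 10.9% against 9.63%.

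Kcnq1ot1 did not come alone. The genes whose level over the kept wells was most like that of Kcnq1ot1, by Spearman correlation of CPM among genes of at least 100 CPM, were nearly the same in both BMDM plates, with 8 of the 10 most like genes shared. They were Gm17821 (0.88 over 262 WBRT wells, 0.85 over 234 noWBRT wells), A630089N07Rik (0.82, 0.79), Grk4 (0.76, 0.69), Vmn2r55 (0.66, 0.72), Gm10785 (0.60, 0.56), A130077B15Rik (0.49, 0.52), Malat1 (0.50, 0.45) and Gm10845 (0.45, 0.40). These wells share libraries and differ in depth. In the other wells alone, which were among the wells these genes were picked in and whose range ends at the limit of 10000 CPM, the coefficient of Gm17821 was 0.86 after WBRT and 0.78 without. That of A130077B15Rik was 0.41 and 0.33 there.

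The 6 of these genes other than Malat1 and Gm10845 are called partner genes here, for keeping their ratio to Kcnq1ot1 between rich and other wells within 1.5 times in both plates, a group drawn up after the values were seen. They are of mixed kinds and lie on other chromosomes, with 1 exception. A630089N07Rik and Gm10785 (both chromosome 16) and A130077B15Rik (chromosome 10) are annotated as long noncoding RNAs, and Gm17821 (chromosome 12) as a pseudogene. Grk4 (chromosome 5) encodes a kinase that phosphorylates G protein-coupled receptors. Vmn2r55 belongs to the vomeronasal pheromone receptor family and lies at chr7:12651706-12685003, on the same chromosome as Kcnq1ot1 but far from it.

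Gm17821 had the most counts of the partners. It was at 87790 CPM pooled over the WBRT rich wells and 1592 CPM over the other WBRT wells, a ratio of 55.2 (52.8 to 57.7). In the noWBRT plate it was at 20354 CPM in rich and 1975 CPM in other wells, a ratio of 10.3 (9.69 to 11). The corresponding ratios of Kcnq1ot1 itself were 55.8 (53.9 to 57.7) and 10.4 (9.96 to 10.9). Grk4 was at 34082 CPM in rich and 527 CPM in other WBRT wells, and at 6072 CPM in rich and 636 CPM in other noWBRT wells. The well medians gave the same direction, with 14081 CPM of Gm17821 in rich and 1360 in other WBRT wells, and 13826 CPM in rich and 2032 in other noWBRT wells. Of the other partners, pooled ratios ran between 45.1 (Gm10785) and 64.6 (Grk4) after WBRT and between 9.09 (Gm10785) and 12.4 (A130077B15Rik) without.

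The choice of the partners fixes that their ratio to Kcnq1ot1 was close in rich and in other wells of the BMDM plates, so those values describe the group and support nothing, whereas the wells that were not kept had no part in the choice. For each 100 Kcnq1ot1 counts there were 61.6 Gm17821 counts in WBRT rich wells, 62.3 in other WBRT wells and 69.3 in wells that were not kept. Without WBRT these were 57.4, 58.1 and 66.6. A630089N07Rik gave 31.4, 35.7 and 37.5 after WBRT and 29.9, 30.2 and 39.9 without, and Vmn2r55 gave 20.1, 20.8 and 24.1 after WBRT and 15.7, 16.7 and 19.5 without. Summed over the 6 partners there were 152 counts per 100 Kcnq1ot1 counts in WBRT rich wells (147 to 156), 155 in other wells (150.4 to 161) and 171 in wells not kept (153 to 192). Without WBRT the sums were 137 (131 to 143), 141 (135 to 147) and 175 (148 to 205). The interval of the wells not kept without WBRT lies above that of the rich wells, and after WBRT these intervals overlap. Of the single partners, A630089N07Rik, Gm10785 (8.44 in rich and 10.4 in other wells) and Grk4 (23.9 in rich and 20.6 in other wells) had intervals that do not overlap after WBRT, and none did so without WBRT.

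Single rich wells varied around those sums. The partner sum per 100 Kcnq1ot1 counts was 128 in the lowest, 155 in the median and 208 in the highest WBRT rich well, and 78.5, 128 and 206 in noWBRT rich wells. The 7 WBRT rich wells with more Kcnq1ot1 gave 151 and the 7 with less gave 161, whereas the 15 noWBRT rich wells with more gave 141 (134 to 148) and the 15 with less gave 123 (112 to 135). Without the well with most Kcnq1ot1 the sum was 149.6 after WBRT and 137 without. The microglia plates, which had no part in choosing the wells or the partners, gave 132 (118 to 149) in rich and 158 (147 to 170.0) in other wells after WBRT, and 181 (171 to 191) in rich and 145 (137 to 154) in other wells without. In the noWBRT microglia plate 1 of the 4 rich wells held 90.1% of their Kcnq1ot1 counts. Without that well the sum there was 139 (117 to 167), an interval that overlaps that of the other wells.

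**Figure D3:**
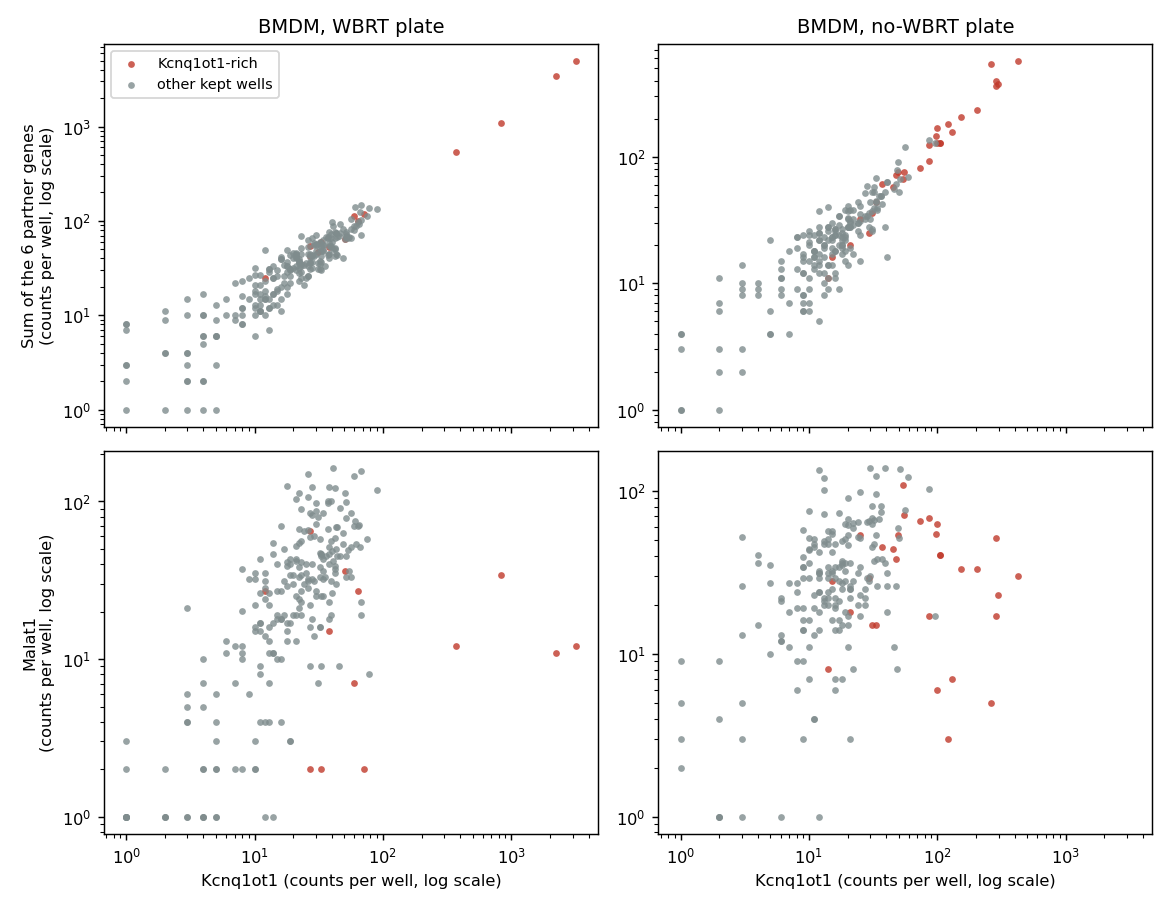
Summed counts of the 6 partner genes (top) and counts of Malat1 (bottom) against Kcnq1ot1 counts in each BMDM well, WBRT left and noWBRT right. The partner sum pooled over the rich wells was 152 and 137 per 100 Kcnq1ot1 counts, close to that of the other wells, as the choice of the partners requires. Single rich wells ran from 128 to 208 after WBRT and from 78.5 to 206 without. Malat1, which did not meet that choice, is shown beside the partner sum.

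Malat1 and Gm10845 went with Kcnq1ot1 over wells and were left out of the partners because their ratio to it differed more. Malat1, an abundant nuclear long noncoding RNA, gave 3.59 counts per 100 Kcnq1ot1 counts in WBRT rich wells and 145 in other WBRT wells, and 32.2 in rich and 192 in other noWBRT wells. Its own level was 0, 4488 and 32505 CPM in the lowest, median and highest WBRT rich well, against 0, 2852 and 18622 CPM in other WBRT wells. In noWBRT wells it was 2308, 11222 and 35864 CPM in rich wells, against 0, 6350 and 28811 CPM in other wells. The pooled ratio was 1.38 (1.22 to 1.57) after WBRT and 1.74 (1.64 to 1.86) without, under the 2-fold limit in both plates. Gm10845, a long noncoding RNA on chromosome 14, was 5.85 times higher in rich than in other wells after WBRT and 2.56 times without.

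**Figure D4:**
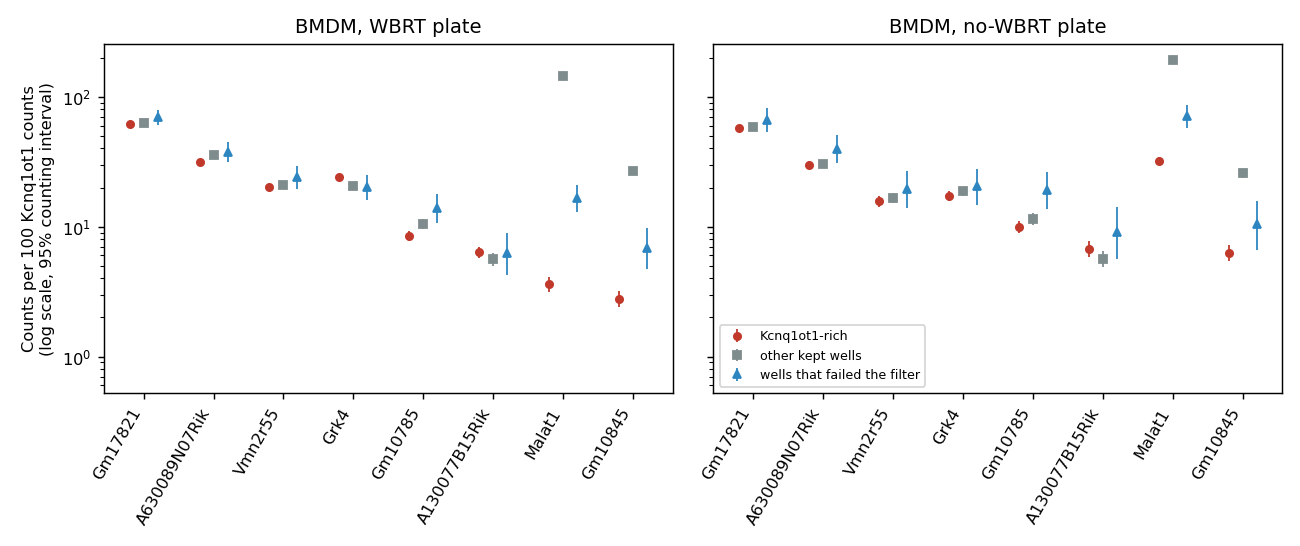
Counts per 100 Kcnq1ot1 counts (logarithmic axis) of the 6 partner genes, Malat1 and Gm10845 in rich, other and not kept wells of each BMDM plate, with 95% counting intervals. Rich and other wells lie close for the partners, which were chosen for that, with Gm17821 at 61.6 and 62.3 after WBRT, and apart for Malat1 and Gm10845. The wells that were not kept, which had no part in the choice, gave 69.3 for Gm17821.

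Kcnq1ot1 and its partners together took up 35.9% of the endogenous counts of the WBRT rich wells and 8.40% of those of the noWBRT rich wells, against 0.653% and 0.818% in other wells. Per well the share was 2.88% in the lowest, 5.15% in the median and 72.3% in the highest WBRT rich well, and 1.94%, 5.95% and 55.1% in noWBRT rich wells. Without these 7 genes a median rich well held 1827 counts after WBRT, against 8331 in other wells, and 2161 without WBRT, against 4126. All 14 WBRT and 27 of 30 noWBRT rich wells still had at least 1000 counts. Per ERCC count the median was then 1.99 in rich and 10.9 in other WBRT wells, and 6.81 in rich and 12.2 in other noWBRT wells.

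The partners' transcripts were compared with Kcnq1ot1 letter by letter, since reads that fit more than 1 place could be counted under several names. The longest stretch shared with Kcnq1ot1 on the same strand was 63 bases in A630089N07Rik, 49 in A130077B15Rik, 41 in Grk4, 24 in Vmn2r55, 15 in Gm10785 and 13 in Gm17821. Of all annotated gene names 7.29% shared a stretch of 30 bases with Kcnq1ot1 on the same strand and 7.04% on the other strand. For the 3 partners above that length, the first 30 bases of the stretch are printed in capitals, since all of them are identical in both transcripts, with the place of the copy in Kcnq1ot1 (GRCm38, minus strand).
A630089N07Rik, chr7:143229016-143229045: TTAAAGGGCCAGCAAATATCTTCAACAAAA
A130077B15Rik, chr7:143221136-143221165: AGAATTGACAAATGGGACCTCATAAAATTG
Grk4, chr7:143220420-143220449: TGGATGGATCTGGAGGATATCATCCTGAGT
Gm17821, the partner with the most counts, shared no more than 13 bases on the same strand and 15 on the other. In the spliced transcripts the partners' own longest A runs were 5 to 7 bases and that of Malat1 was 12. The partners' introns were not read here, so runs and shared stretches in them are not covered. How reads that fit several places were counted is not given in the sources used here, so counts of these genes are uncertain as counts of the named gene.

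The genes with the largest pooled differences included the partners. The rule took, in each plate, the 15 highest and the 15 lowest ratios among genes of at least 100 CPM with intervals that do not overlap. The 15 higher genes shared 10 names between the plates and the 15 lower genes shared 1, the purine salvage enzyme Hprt. The level of 100 CPM was asked of either set, so genes low in the other wells enter only through the rich wells. The partners among the higher genes were also picked in both plates. The numbers of shared names are thus partly set by the choice, and nothing is read from them. Beside the partners, Mid1, a ubiquitin ligase gene on the X chromosome, was at 2969 CPM in rich and 22.8 CPM in other WBRT wells, a ratio of 130 (93.8 to 181), with a count in 35.7% of the rich wells and a well median of 0. D830005E20Rik was 125 times higher in rich wells after WBRT and 16.0 times without, Lipi, a phospholipase gene, 72.4 and 12.1 times, Psg28, a pregnancy-specific glycoprotein gene, 64.1 and 14.8 times, and 4930470H14Rik 55.1 and 12.4 times. Slfn9 was 56.4 times higher in rich wells after WBRT and 6.58 times without. Among genes of at least 100 CPM in the rich wells with a count in at least 20% of them, 35 of 1243 after WBRT and 23 of 1600 without had a ratio within 1.5 times of that of Kcnq1ot1, on 16 and 15 chromosomes, and 12 genes did so in both. The filter is on the rich wells alone, so a gene that is low in the other wells enters only where its ratio is high. At least 100 CPM in the other wells too was reached by 952 and 1303 of the genes, and among these the 6 partners alone had such a ratio in each plate. The partners had to have it, since they were chosen by the same limit of 1.5 times, so their presence here is no result. They are also among the 12 genes found in both plates. The 35 genes after WBRT were 17 coding genes, 13 long noncoding RNAs and 5 pseudogenes. They held 23.0% of the rich wells' counts, of which the partners held 21.6% and the other 29 genes 1.42%.

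The genes named as lower had few or no counts in the rich wells. After WBRT all 15 had 0 counts in the rich wells, where a count of 0 allows up to 60.8 CPM (3 counts over the set). Sep15, a selenoprotein gene, was at 275 CPM in other wells and so at least 4.52-fold lower in rich wells, the proteasome subunit gene Psmb1 (233 CPM) at least 3.84-fold lower and Hprt (174 CPM) at least 2.86-fold lower. In the noWBRT plate the floor was 31.6 CPM. The GTP-binding protein gene Gtpbp1 was at least 3.72-fold lower and the chaperonin subunit gene Cct3 at least 3.27-fold lower in rich wells, both with 0 counts. H2-Ea-ps, a class II gene whose symbol marks a pseudogene, was at 169 CPM in rich and 756 CPM in other noWBRT wells (ratio 0.223, 0.127 to 0.364).

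Over all genes of at least 20 CPM in 1 of the sets, 24.1% of 8670 were at least 2-fold higher and 34.2% at least 2-fold lower in WBRT rich wells, on the scale of log2(CPM + 5), and 15.5% and 15.3% of 7606 in noWBRT rich wells. Many of these are low genes with few counts, and the rule used this contrast, so nothing is read from the shares. The median log2 ratio of all genes was -0.35 after WBRT and -0.02 without. Leaving Kcnq1ot1 and its partners out of the CPM turned the WBRT median to 0.22 and the split to 2790 genes higher and 2077 lower, against 2088 higher and 2968 lower, while the noWBRT median went to 0.08. A gene under 20 CPM in the other wells enters only where the rich wells are higher, and after WBRT 1 rich count is enough. The all-gene medians are raised by such genes. The list medians are therefore to be read against the abundant genes given next as well.

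Among genes of at least 100 CPM in the other wells, a filter that the rich wells had no part in, 1.04% of 1733 were at least 2-fold higher and 51.3% at least 2-fold lower in WBRT rich wells, and 1.5% and 10.4% of 1733 in noWBRT rich wells. The median log2 ratio of these abundant genes was -1.03 after WBRT and -0.25 without. Of the 13 long noncoding RNAs that passed after WBRT, 5 were at least 2-fold higher and 0 lower, with a median log2 ratio of 0.47. Of 16 without WBRT, 5 were higher and 0 lower, with a median of 0.27. In each plate 3 of the 5 were partner genes, and the other two were Gm10845 and Gm19757. Without the partners the medians were 0.27 over 10 genes after WBRT and -0.00 over 13 genes without. A further 45 and 16 long noncoding RNAs reached 100 CPM in the rich wells alone, where they had to be higher.

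Coding genes that span more of the genome had higher median ratios in the rich wells. By genomic span under 10 kb, 10 to 50 kb, 50 to 200 kb and over 200 kb, the median log2 ratios were -1.12, -1.06, -0.85 and -0.69 after WBRT (536, 773, 357 and 46 genes) and -0.30, -0.25, -0.18 and -0.01 without (548, 785, 334 and 39 genes). The order of the medians is the same in both plates, with 46 and 39 genes in the longest class. Ribosomal protein genes, given below, were left in these classes, and no intervals were computed for these medians. The share of genes at least 2-fold lower fell with span after WBRT, at 58.0, 53.3, 41.5 and 30.4%. Without WBRT it was 10.2, 10.4, 11.4 and 7.69%, which holds no such order. Exonic and intronic counts were not analysed here separately.

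Of the other nuclear long noncoding RNAs in a fixed list, 9 of the 11 that passed the 20 CPM filter after WBRT and 8 of 9 without were above 0 on the log2 scale, with medians of 0.96 and 0.74. At least 2-fold higher were 4 and 3 of them, with 24.1% and 15.5% of all genes as the background. Over the WBRT rich wells 1 count is worth 20.3 CPM and passes that filter by itself, as it did for Tsix, Rian, Jpx and Pvt1, so the counts and medians of this list support no direction. Neat1, the RNA core of nuclear paraspeckles, was at 447 CPM (22 counts) in rich and 227 CPM in other WBRT wells, and at 221 CPM in rich and 188 CPM in other noWBRT wells. Xist, the RNA that coats the inactive X chromosome, was at 325 CPM in rich and 385 CPM in other WBRT wells, and at 463 CPM in rich and 275 CPM in other noWBRT wells. Airn, the antisense RNA of the imprinted Igf2r locus, had 6 counts in the WBRT rich wells and 0 in the noWBRT rich wells. Hosts of small nucleolar RNAs, which are spliced and exported, had medians of -0.14 (9 genes) and -0.06 (10 genes).

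The imprinted neighbours of Kcnq1ot1 on chromosome 7 had few counts. Of 4 neighbours that passed the filter after WBRT 1 was above 0 and 3 below, with a median of -0.66, and of 3 without WBRT 2 were above and 1 below, with a median of 0.06. Cd81, a tetraspanin gene of the cell surface, was at 142 CPM (7 counts) in rich and 342 CPM in other WBRT wells, and at 390 CPM in rich and 374 CPM in other noWBRT wells. The growth inhibitor gene Cdkn1c had 0 counts in the rich wells of both plates. Kcnq1 was not analysed here.

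The rich wells carried myeloid transcripts. All 14 WBRT and all 30 noWBRT rich wells held a count of the 18-gene pan-myeloid list, whose summed level was 3320, 25662 and 66794 CPM in the lowest, median and highest WBRT rich well, against 11490, 38669 and 105982 CPM in other WBRT wells. Without WBRT it was 2482, 19516 and 57938 CPM in rich wells, against 6722, 24088 and 79839 CPM in other wells. After thinning to 1000 UMIs a median well held 23.5 pan-myeloid UMIs in rich and 37.5 in other WBRT wells, and 19.5 in rich and 25 in other noWBRT wells. The ranges overlap in both plates.

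Gene by gene the list lay below 0 after WBRT, near the level of abundant genes, and was mixed without. After WBRT 18 of 18 genes were below 0, 10 of them at least 2-fold against 34.2% of all genes and 51.3% of abundant genes, and the median was -1.28 against -0.35 for all genes and -1.03 for abundant genes. Weighting every well alike gave -0.60, and leaving Kcnq1ot1 and its partners out of the CPM gave -0.65 against 0.22 for all genes. The median of abundant genes was not computed without these genes, so -0.65 is not set against it. Without WBRT 7 genes were above and 11 below, 0 past 2-fold, with a median of -0.21 against -0.25 for abundant genes. Csf1r, the receptor for the growth factor of macrophages, was at 649 CPM in rich and 1943 CPM in other WBRT wells, and at 1783 CPM in rich and 1373 CPM in other noWBRT wells. Cst3, a protease inhibitor abundant in macrophages, was at 1889 CPM in rich and 5036 CPM in other WBRT wells, and at 5505 CPM in rich and 7337 CPM in other noWBRT wells. The lysosomal protease gene Ctsb was at 6824 CPM in rich and 11610 CPM in other WBRT wells, and at 3475 CPM in rich and 4144 CPM in other noWBRT wells. Lyz2, the lysozyme gene of myeloid cells, was at 183 CPM in rich and 1261 CPM in other WBRT wells, on 9 rich counts, and at 84.3 CPM in rich and 165 CPM in other noWBRT wells.

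Antigen presentation genes of MHC class II were below 0 in 7 of 7 genes in both plates, with medians of -1.31 after WBRT and -0.74 without, 6 and 1 of them at least 2-fold lower. Of all genes 34.2% and 15.3% were at least 2-fold lower, and of abundant genes 51.3% and 10.4%, with medians of -1.03 and -0.25. With the Kcnq1ot1 limit at 5000 CPM the WBRT median of the class II genes turned to 0.34. Their summed level was 11196 CPM in rich and 28646 CPM in other WBRT wells, and 20600 CPM in rich and 33892 CPM in other noWBRT wells. Cd74, the invariant chain that guides class II molecules, was at 2461 CPM in rich and 9436 CPM in other WBRT wells, and at 4180 CPM in rich and 7957 CPM in other noWBRT wells. The interferon-induced list had medians of -1.28 and -0.37, and with the limit at 20000 CPM its noWBRT median turned to 0.12.

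Genes of protein synthesis and respiration lay below 0 in both plates. Ribosomal protein genes were below 0 in 73 of 78 genes after WBRT, 56 at least 2-fold lower, with a median of -1.21, and in 75 of 83 without, 4 at least 2-fold lower, with a median of -0.51. Over all genes 34.2% and 15.3% were at least 2-fold lower, and over abundant genes 51.3% and 10.4%, with medians of -1.03 and -0.25. With Kcnq1ot1 and its partners left out of the CPM the ribosomal protein medians were -0.58 and -0.39, against 0.22 and 0.08 for all genes. Medians of abundant genes were not computed on that scale. Their summed level was 31621 CPM in rich and 75665 CPM in other WBRT wells, and 77492 CPM in rich and 108141 CPM in other noWBRT wells. After thinning to 1000 UMIs a median rich well held 46 ribosomal protein UMIs and a median other well 73 after WBRT, and 67 and 105 without. Nuclear genes of oxidative phosphorylation had medians of -1.29 (78 genes, 49 at least 2-fold lower) and -0.39 (81 genes, 17 lower). Housekeeping genes were below 0 in 11 of 11 genes in both plates, with medians of -0.97 and -0.32, close to the -1.03 and -0.25 of abundant genes. Actb, the cytoskeletal actin, was at 4315 CPM in rich and 8469 CPM in other WBRT wells, and at 9791 CPM in rich and 11434 CPM in other noWBRT wells. Against other wells limited in depth the ribosomal protein medians were -1.18 and -0.44. The mitochondrial transcripts, which are outside these CPM, had the opposite direction in the median well.

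**Figure D5:**
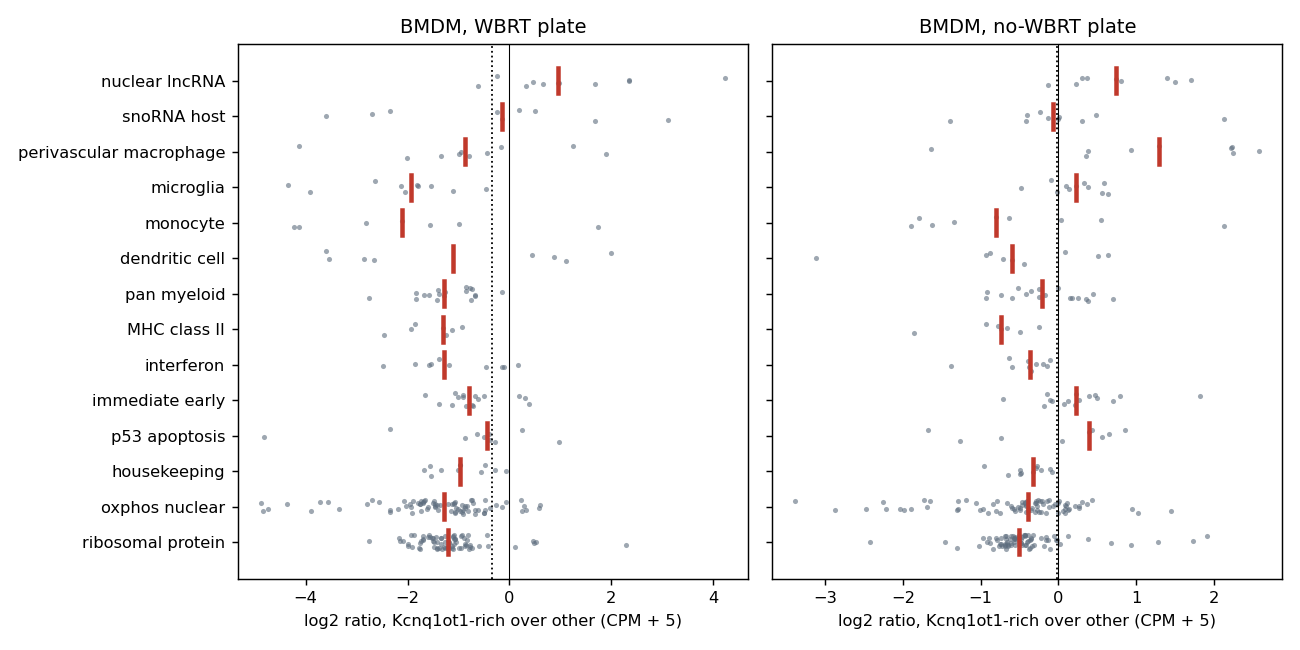
Log2 ratio of CPM + 5, rich over other wells, for each gene of the fixed lists in the WBRT (left) and noWBRT (right) BMDM plate, with a red bar at each list's median and a dotted line at the median of all genes (-0.35 and -0.02). Ribosomal protein, oxidative phosphorylation and MHC class II genes lie mostly below 0 in both plates, as do abundant genes as a whole (medians -1.03 and -0.25). Of the nuclear long noncoding RNAs some passed the filter on 1 count in the WBRT rich wells, and no direction is read from that list.

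Lists of narrower myeloid types did not single out one type in both plates. The medians beside them were -0.35 after WBRT and -0.02 without for all genes, and -1.03 and -0.25 for abundant genes. Monocyte genes had medians of -2.11 after WBRT (7 genes) and -0.80 without (9 genes), with the chemokine receptor gene Ccr2 at 527 CPM in rich and 1059 CPM in other WBRT wells, and at 253 CPM in rich and 443 CPM in other noWBRT wells. Dendritic cell genes had medians of -1.11 and -0.60. After WBRT their summed level was 122 CPM in rich and 338 CPM in other wells, with 5 of 10 members at 0 counts in rich wells. The 95% intervals of the monocyte and dendritic cell medians hold 0 in both plates, so these medians support no direction. Microglia genes were below 0 in 10 of 10 genes after WBRT (median -1.93), and without WBRT 8 were above and 3 below (median 0.23). Genes of perivascular macrophages had a median of -0.87 after WBRT, with 2 above and 8 below, and of 1.30 without, with 8 above and 1 below. The second turned to -0.61 with a minimum of 3000 counts. The mannose receptor gene Mrc1 was at 203 CPM in rich and 408 CPM in other WBRT wells, and at 644 CPM in rich and 132 CPM in other noWBRT wells.

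Of the neutrophil list 2 genes passed the filter. Cxcr2, a chemokine receptor, was at 853 CPM in rich and 27.2 CPM in other WBRT wells, and at 464 CPM in rich and 76.7 CPM in other noWBRT wells, and it was among the 10 genes most like Kcnq1ot1 in the WBRT plate (Spearman 0.32). Csf3r, the receptor of the neutrophil growth factor, was at 223 CPM in rich and 152 CPM in other WBRT wells, and at 116 CPM in rich and 100 CPM in other noWBRT wells. The defining neutrophil gene S100a8 had 0 counts in the rich wells of both plates. Lists of T and natural killer cells, B cells, red cells, neurons, astrocytes, oligodendrocytes, endothelial, mural and epithelial cells summed to at most 183 CPM in the rich wells of either plate.

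Stress lists gave no common direction beside the all-gene medians of -0.35 and -0.02 and the abundant-gene medians of -1.03 and -0.25. Immediate early genes, which respond to handling and activation within minutes, had medians of -0.80 after WBRT and 0.22 without, with the transcription factor gene Jun at 649 CPM in rich and 498 CPM in other WBRT wells, and at 2682 CPM in rich and 755 CPM in other noWBRT wells. Genes of p53 and apoptosis had medians of -0.45 and 0.40, with the cell cycle inhibitor gene Cdkn1a at 893 CPM in rich and 1177 CPM in other WBRT wells, and at 992 CPM in rich and 631 CPM in other noWBRT wells. Heat shock genes had medians of -0.98 and -0.23, and Hspa1b was at 692 CPM in rich and 26.8 CPM in other WBRT wells, in 21.4% of the rich wells. Genes of the S and G2/M phases had medians of 0.31 and -0.03. For every list, rich and other wells also differed in median depth, ERCC share and mitochondrial share, as given above. The part of these in the list values was not tested.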

How the data were processed

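Values in the deposited tables are expected counts per gene and well. From the values, they are unique molecular identifiers (UMIs) corrected by the authors for coinciding identifiers among 4096, reproduced to within 0.005. Per the submitters' processing notes the build was GRCm38. For the aligner, the counter, the gene annotation and the use of strand, none is given in the sources used here. Per the labels' protocols, cells were sorted into 384-well plates, frozen and processed by a service after a published plate protocol.

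CPM were computed over endogenous counts, without ERCC and mitochondrial rows. Pooled CPM are summed counts over summed totals, and ratios are log2 of CPM + 5 for genes of at least 20 CPM in 1 of the sets. Intervals are exact Poisson or Clopper-Pearson at 95%, and a count of 0 was set at 3 counts per set of wells. The 95% intervals of medians come from the ordered values of the wells or genes. Wells were thinned to 1000 UMIs where stated. Doublets were not called, since 1 cell was sorted per well as read from the protocol.

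Named genes were, per BMDM plate, the 15 highest and 15 lowest ratios among genes of at least 100 CPM with a UMI in at least 20% of the wells of the higher set and intervals that do not overlap, every list member, and the 10 genes most correlated with Kcnq1ot1. The members and the 28 lists were chosen with earlier results of these data known, and the partner genes after their values were seen. Of the genes these rules took, 1 is not reported here. No symbol of a satellite-like list was matched. Spi1 is listed as Sfpi1. The intervals of pooled ratios and the direction of the ratios were checked on simulated Poisson counts. Those counts hold no spread between wells, and the numbers of genes past 2-fold were not checked in this way.

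Transcript sequences came from GENCODE M21, and gene types and spans from RefSeq GRCm38.p6. Alternatives were other limits, filters, denominators, pseudocounts, TMM factors (edgeR 4.0.16, used for these alone on counts rounded to whole numbers), weighting wells alike and depth-limited other wells. Python 3.11.15, numpy 2.4.6, scipy 1.17.1, pandas 2.3.3, matplotlib 3.10.9 and R 4.3.3 were used.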

Additional observations from a re-analysis of the deposited data

Results flagged for a closer look

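The pooled level of Kcnq1ot1 was also high in wells that the comparison of rich with other wells left out. Pooled over wells of at least 100 endogenous counts that failed the depth or ERCC filter, it was at 18354 CPM in the WBRT and 11690 CPM in the noWBRT BMDM plate, above the pooled level of the other kept wells of each plate. The other kept wells were cut at 10000 CPM by the rule and the wells that failed were not. In the noWBRT plate the median well that failed was at 2386 CPM, below the 3298 CPM of the median other kept well.

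Of the lists, 4 had medians of opposite sign in the 2 BMDM plates, rich over other wells, and the difference between plates was not tested. Perivascular macrophage genes were at -0.87 after WBRT and 1.30 without (-0.61 without WBRT at a minimum of 3000 counts), microglia genes at -1.93 and 0.23, immediate early genes at -0.80 and 0.22, and p53 and apoptosis genes at -0.45 and 0.40. For none of these lists did the 95% intervals of both medians leave out 0. Intervals that hold 0 were -2.02 to 1.24 (perivascular, WBRT), -0.09 to 0.59 (microglia, noWBRT) and -0.11 to 0.49 (immediate early, noWBRT). For p53 and apoptosis genes they were -2.33 to 0.25 after WBRT and -1.27 to 0.65 without. A change of sign between the plates is therefore not resolved. The all-gene medians beside them were -0.35 and -0.02, and 0.22 and 0.08 when Kcnq1ot1 and its partners were left out of the CPM. Those of abundant genes were -1.03 and -0.25.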

How the results depend on the processing

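No paired analysis was possible because each group is 1 plate and no result comes from a test. The limit on Kcnq1ot1 sets the wells: at 5000 CPM there were 36 WBRT and 84 noWBRT rich wells, at 20000 CPM 7 and 16. A minimum of 3000 counts left 5 and 10, and an ERCC limit of 25% left 7 WBRT wells. At 5000 CPM, 350 genes were higher and 512 lower after WBRT and 402 and 317 without, the pan-myeloid and ribosomal protein WBRT medians were -0.33 and -0.31, the noWBRT ribosomal protein median -0.24, and the WBRT MHC class II median turned to 0.34. At 20000 CPM, 4498 genes were lower after WBRT, 1927 higher and 2008 lower without, the pan-myeloid and ribosomal protein WBRT medians were -2.50 and -2.14, the noWBRT ribosomal protein median -0.73, and the noWBRT interferon median turned to 0.12. At a minimum of 3000 counts the WBRT medians of both lists were -1.97 and -2.33, the ERCC difference (rich minus other) was 1.56 percentage points after WBRT and turned to -2.25 without, the noWBRT log2 ratio of median counts turned to 0.06 and the noWBRT perivascular median to -0.61. Without Kcnq1ot1 in the CPM the WBRT ribosomal protein median was -0.99, with TMM factors -1.08 (noWBRT -0.62), and without the well with most Kcnq1ot1 -0.92. Weighting wells alike gave -0.60 for pan-myeloid and -0.69 for ribosomal protein genes after WBRT, and -0.58 for the second without. Leaving Kcnq1ot1 and the partners out, chosen after seeing the data like the denominator with mitochondrial counts (11 and 26 rich wells), gave -0.65, -0.58 and -0.39, and 0.22 for all WBRT genes. A pseudocount of 20 CPM gave 1221 higher after WBRT and 525 higher and 706 lower without. No low filter gave 5048 lower after WBRT, 1798 higher and 2441 lower without, and an astrocyte median of -0.25 without WBRT. A filter of 100 CPM gave 223 higher and 889 lower after WBRT, 152 and 180 without. Fewer genes or wells enter under the stricter filters, and the cause of the other changes was not tested. Of the main values computed under alternatives (numbers of wells, depth, shares, the partner sum, counts of genes, and the pan-myeloid and ribosomal protein medians), 111 stayed within the 95% interval of the reported value, or within 1.5 times for numbers of wells and genes, and 43 moved. Of the other list medians, the all-gene medians and the percentages of rich wells, 391 stayed, 65 moved and the 5 given above changed sign where the interval of the reported value leaves out 0. The partner sum per 100 Kcnq1ot1 counts stayed between 149.6 and 153 after WBRT and between 136 and 140.3 without, under both other limits and without the well with most Kcnq1ot1. The 49313 and 94948 counts of the rich wells limit what can be seen of low genes.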
